A study of Mus musculus with 14 samples.

Results

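miR-6540 and miR-7689 are mouse microRNAs (miRNAs) whose precursors lie inside the first introns of Gap43 and Sorcs2, both genes of the nervous system. The 3 measured mature products were miR-7689-3p and both strands of miR-6540, the 5p and the 3p. They were picked by name from the 1123 miRNAs listed, because earlier results of these data had shown all 3 higher after nerve injury in both mouse strains. miR-7689-5p was not among the 1123 miRNAs listed. All 3 passed the filter on low values, which kept 638 miRNAs with at least 5 CPM (read counts scaled to a common library total) in at least 3 libraries. miR-6540-5p met 5 CPM in all 14 libraries, miR-6540-3p in 5 naive and 6 injured libraries, and miR-7689-3p in 3 naive and 6 injured libraries. Since injury values chose them, their injury changes are given below as a description and support nothing by themselves.

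The libraries came from dorsal root ganglia (DRG), which hold the cell bodies of sensory neurons, of the laboratory strain C57BL/6 and the wild-derived strain CAST/Ei. There were 5 naive and 3 injured C57BL/6 libraries and 3 naive and 3 injured CAST/Ei libraries, which the series calls biological replicates. Injured mice were adult males of 8 to 10 weeks with the left sciatic nerve crushed by forceps for 30 s. For the naive mice neither age nor sex is given in the sources used here, nor is the time from crush to dissection. Ganglia were dissociated before RNA extraction, and no transgene or drug is named for any group.

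A miRNA is cut from a hairpin-shaped precursor, whose 5′ and 3′ arms can each yield a mature strand (5p and 3p) that guides repression of mRNAs matching its seed, bases 2 to 8. A precursor in an intron on the host gene's strand can be released from the host's transcript, whereas one on the opposite strand must come from another transcript. Gap43 encodes growth-associated protein 43, which is abundant in growth cones and known for its induction in regenerating sensory neurons. Sorcs2 encodes a sorting receptor of the sortilin family that binds proneurotrophins.

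The precursors are shown because their position and strand set miR-6540 and miR-7689 apart from each other. Sequences and positions are those of RefSeq on GRCm38.p6, and host annotation is GENCODE M21. Mir6540 lies at chr16:42303362-42303469 on the minus strand. Mir7689 lies at chr5:36301570-36301628 on the plus strand. Capitals mark the mature strands of the table, which holds the 3p strand of Mir6540 and both strands of Mir7689.
Mir6540 hairpin: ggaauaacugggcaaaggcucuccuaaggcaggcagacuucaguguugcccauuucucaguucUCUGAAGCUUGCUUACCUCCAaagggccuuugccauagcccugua
Mir7689 hairpin: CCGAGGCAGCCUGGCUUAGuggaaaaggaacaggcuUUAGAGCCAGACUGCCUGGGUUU

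The 2 measured strands with an entry follow with their seeds in capitals, since the seed defines what a miRNA can pair with.
miR-6540-3p: uCUGAAGCuugcuuaccucca
miR-7689-3p: uUAGAGCCagacugccuggguuu
miR-6540-3p occupies chr16:42303386-42303406 and miR-7689-3p chr5:36301606-36301628. Neither seed occurred at bases 2 to 8 of any other of the 1679 mature names in the table, so the 2 belong to no shared seed family there. Each strand matched exactly 1 of 141767 annotated transcripts, its own hairpin. The nearest other mature sequence was 6 edits away from miR-6540-3p (miR-6904-3p) and 7 edits away from miR-7689-3p (miR-5108).

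The hairpins differed in size and in their share of G and C. Mir6540 had 108 bases with 50.9% GC and Mir7689 had 59 bases with 55.9% GC, against a median length of 79 bases over 1005 hairpins of the table. The minimum folding energy (RNAfold 2.7.2) was -40.2 kcal/mol for Mir6540, or -0.37 per base. It was -26.8 kcal/mol for Mir7689, or -0.45 per base, and the median over all hairpins was -0.41 per base.

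Mir6540 lies on the same strand as Gap43 (ENSMUSG00000047261.9, chr16:42248442-42340651, minus strand). It sits in intron 1 of 48106 bases in a protein-coding transcript of 3 exons, 37003 bases from the exon upstream and 10995 bases from the exon downstream. Mir7689 lies on the strand opposite to Sorcs2 (ENSMUSG00000029093.14, chr5:36017180-36398139, minus strand). It sits in intron 1 of 168353 bases in a protein-coding transcript of 27 exons, 95937 and 72357 bases from the flanking exons. Neither hairpin overlaps an exon or a UTR of these transcripts, and host mRNA was not analysed here.

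**Figure D1:**
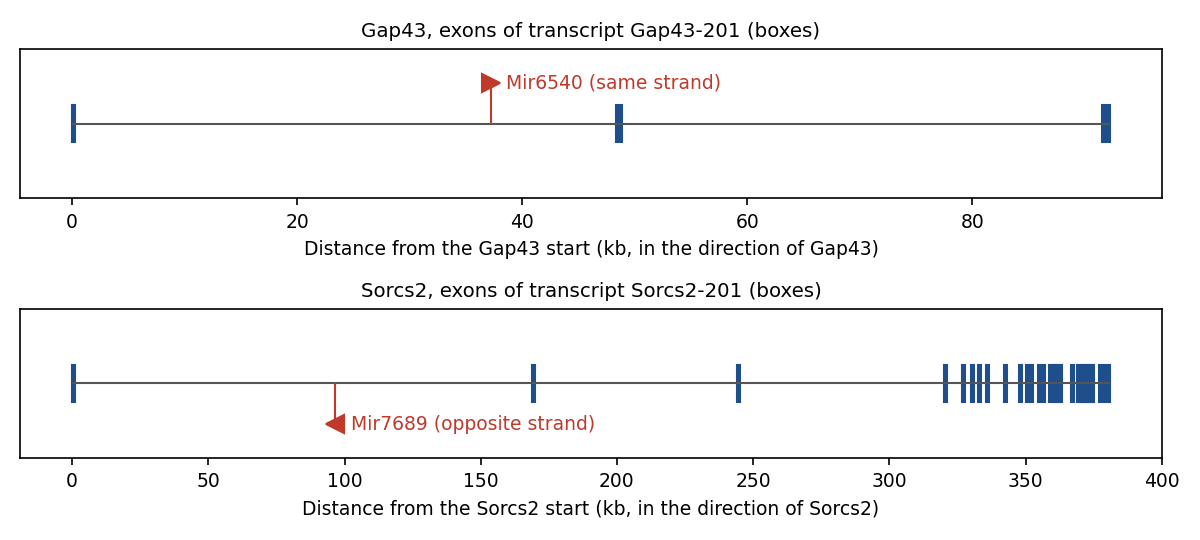
Position of each hairpin along its host gene, in kb from the host's start in the direction of its transcription, with exons as boxes and hairpins as marks. Mir6540 and Mir7689 both lie in intron 1, the former on the host's strand and the latter on the opposite strand.

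Library depth ranged from 4007706 to 15642360 reads, with 949 to 1084 of the 1123 miRNAs seen per library. One read was worth 0.0674 to 0.253 CPM, so the level that 0 reads would allow (3 reads) was 0.202 to 0.760 CPM by library. All 7 neuronal marker miRNAs were present in every library, with a summed level of 103355 to 166741 CPM. Libraries 4 and 5 of the C57BL/6 naive group differed most from the rest: miR-218-5p, which is carried in introns of the Slit genes, was at 260520 and 81351 CPM there and at 3479 to 17984 CPM in the other 12 libraries. The summed level of 4 glial markers was also lowest in these 2 libraries, at 8628 and 8044 CPM. The members' changes, strand balance, correlations and list counts that include them are therefore also given without them. Group means, marker sums and the ranking by position in an intron are over all libraries.

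miR-6540-5p, the 5′ strand of the Gap43 intron hairpin, was the most highly counted of the 3. In C57BL/6 naive libraries 1 to 5 it was at 41.0, 41.8, 30.4, 37.3 and 23.3 CPM, a mean of 34.8 ± 7.82 (SD, n = 5). The C57BL/6 injured libraries had 98.8, 128 and 123 CPM, a mean of 117 ± 15.6 (n = 3). Every injured C57BL/6 library was thus above every naive one, with the lowest injured value 2.36 times the highest naive value. In CAST/Ei it was at 38.7, 38.7 and 44.5 CPM in naive ganglia (40.7 ± 3.36, n = 3). The CAST/Ei injured libraries had 139, 124 and 147 CPM (137 ± 11.4, n = 3), again with no overlap. These levels rested on 120 to 535 reads per naive library and 775 to 2181 per injured library.

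miR-6540-3p, the other strand of the same hairpin, was lower by count and more scattered in naive ganglia. Its level in C57BL/6 naive libraries 1 to 5 was 5.62, 4.46, 3.04, 6.43 and 14.3 CPM (6.77 ± 4.40, n = 5). Library 5 was the highest of these and also the lowest for miR-6540-5p. The C57BL/6 injured libraries had 17.9, 23.3 and 22.9 CPM (21.4 ± 2.99, n = 3), all above the naive ones, but the lowest injured value was only 1.25 times the highest naive value. CAST/Ei naive libraries had 5.14, 4.56 and 6.02 CPM (5.24 ± 0.734, n = 3). CAST/Ei injured libraries had 31.6, 19.4 and 25.4 CPM (25.5 ± 6.08, n = 3), with the lowest 3.23 times the highest naive one.

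miR-7689-3p, from the strand opposite to Sorcs2, started near the detection limit in naive C57BL/6 ganglia. Its level there was 0.822, 4.94, 5.32, 3.67 and 2.63 CPM in libraries 1 to 5 (3.48 ± 1.83, n = 5), from 6 to 61 reads each. C57BL/6 injured libraries had 11.3, 14.5 and 20.4 CPM (15.4 ± 4.64, n = 3), from 113 to 224 reads. The groups did not overlap, and naive library 1 with 6 reads was the lowest of all 14. CAST/Ei naive libraries had 4.63, 10.7 and 5.50 CPM (6.94 ± 3.27, n = 3). CAST/Ei injured libraries had 34.0, 40.0 and 24.7 CPM (32.9 ± 7.73, n = 3), which also lay apart from the naive ones.

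**Figure D2:**
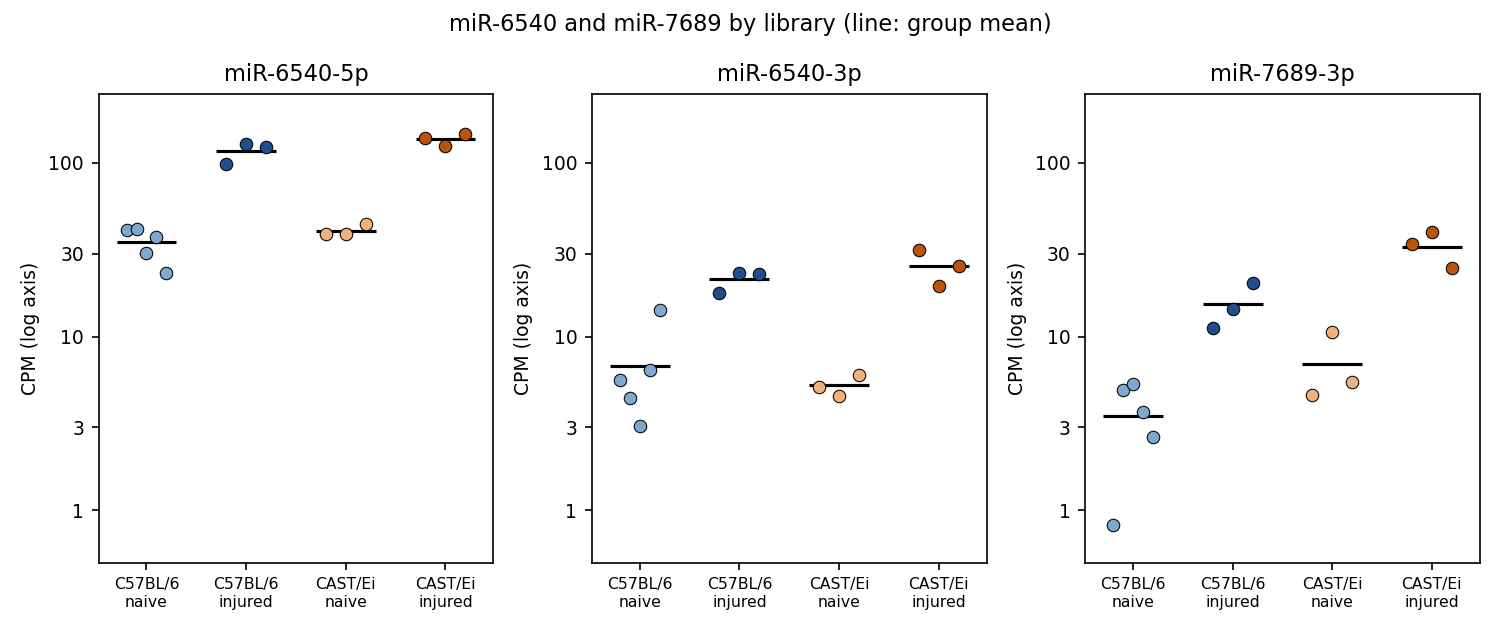
CPM (log axis) of miR-7689-3p and the 2 strands of miR-6540 in each of the 14 libraries by group; each point is 1 library and each line a group mean. For each of the 3 miRNAs all 6 injured libraries lie above all 8 naive ones, with the narrowest gap for miR-7689-3p (10.7 against 11.3 CPM).

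Pooled over strains, the highest naive and the lowest injured library were at 44.5 and 98.8 CPM for miR-6540-5p. They were at 14.3 and 17.9 for its partner miR-6540-3p, and at 10.7 and 11.3 for miR-7689-3p. Of the 638 miRNAs, 8.62% had all injured libraries above all naive ones in C57BL/6 and 10.2% in CAST/Ei. The choice of members used this contrast, so nothing is read from their place among these.

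As ratios of mean CPM, injured to naive, miR-6540-5p stood at 3.35 in C57BL/6 (3.09 without naive libraries 4 and 5) and 3.36 in CAST/Ei. The ratio of miR-6540-3p was 3.16 in C57BL/6 and 4.86 in CAST/Ei, and it was 4.89 in C57BL/6 without naive libraries 4 and 5. That of miR-7689-3p was 4.42 in C57BL/6 (4.16 without those 2 libraries) and 4.74 in CAST/Ei. On a bulk ganglion these ratios cannot tell a change in the number of cells of a type from a change in RNA per cell.

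The limma model fitted over all 638 miRNAs gave the same changes as differences of log2(CPM + 1), a scale that shrinks changes at low levels. In C57BL/6 the injury change was 1.74 ± 0.24 (SE) for miR-6540-5p, while miR-6540-3p had 1.67 ± 0.36 and miR-7689-3p had 1.96 ± 0.40. Without naive libraries 4 and 5 these were 1.61 ± 0.20, 2.08 ± 0.27 and 1.96 ± 0.45. In CAST/Ei it was 1.73 ± 0.27, 2.07 ± 0.40 and 2.14 ± 0.45 in the same order. These changes ranked 6, 8 and 3 from the top among 638 in C57BL/6, and 7, 3 and 2 in CAST/Ei, where the median over all miRNAs was 0.12 and -0.09. The model called 2.35% of the 638 higher after injury in C57BL/6 and 1.10% in CAST/Ei, the members included by choice.

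The members, picked by name for their known rise in both strains, all had an adjusted p under 0.05 in both (limma, Benjamini-Hochberg). The larger of a miRNA's 2 adjusted p-values shows how near each was to that limit. It was 0.00269 for miR-6540-5p, while miR-6540-3p stood at 0.0189 and miR-7689-3p at 0.0218. The other miRNAs inside were miR-431-5p (0.00283) and miR-21a-5p (0.0209), and those just outside were miR-21a-3p (0.0534), miR-1188-5p (0.0924) and miR-1197-3p (0.0995). miR-7689-3p was thus the member nearest to the limit. The counts that follow reuse the libraries and contrasts that chose the members, so they describe nearness to the limit and are no support. Across 26 alternative settings, miR-6540-5p stayed under 0.05 in all of them in both strains (highest limma or edgeR or DESeq2 adjusted p 0.0306). miR-6540-3p passed in 21 in C57BL/6 and 22 in CAST/Ei (highest adjusted p 0.123 and 0.129), and miR-7689-3p in 23 and 21 (highest 0.0970 and 0.171). The settings in which these 2 did not pass left out 1 library of the strain or fitted 2 groups alone. In C57BL/6 the libraries were each of injured 1, 2 and 3 for miR-6540-3p, and injured 2 or 3 for miR-7689-3p. In CAST/Ei they were naive 1 or 2 and injured 1 or 3 for miR-6540-3p, and naive 1 or 3 and each injured library for miR-7689-3p.

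**Figure D3:**
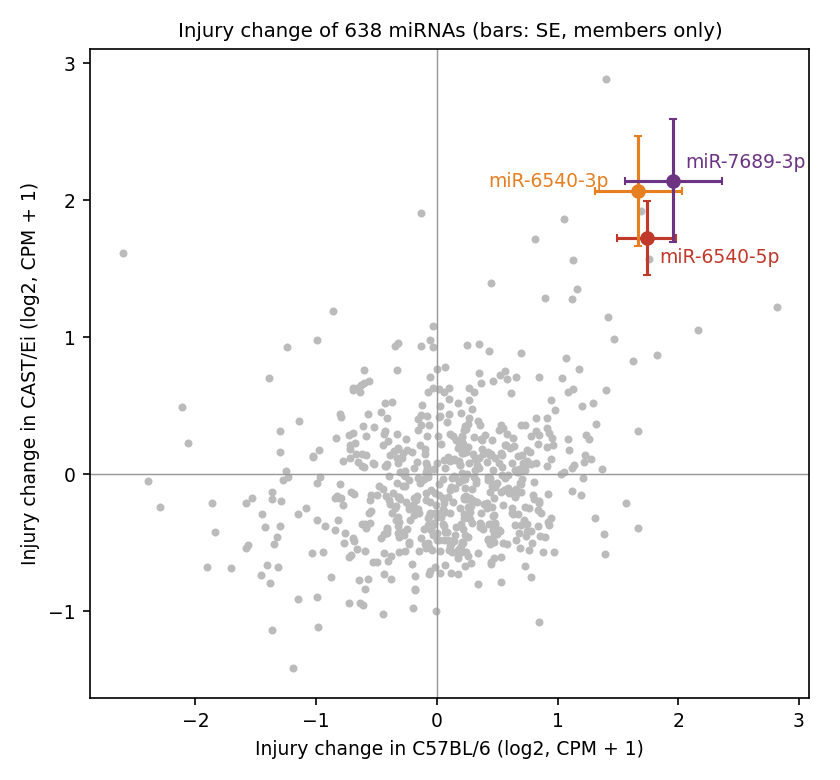
Injury change of miRNAs on the log2(CPM + 1) scale in C57BL/6 (horizontal) and CAST/Ei (vertical), 1 point per miRNA kept, with the 3 chosen miRNAs marked. They lie at 1.67 to 1.96 in C57BL/6 and 1.73 to 2.14 in CAST/Ei; the strains have no libraries in common.

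The difference between the strains' injury changes (CAST/Ei minus C57BL/6) is also a description, since both changes were used to choose. It was -0.01 for miR-6540-5p (95% interval -0.79 to 0.76), whereas miR-6540-3p had 0.40 (-0.76 to 1.55). It was 0.18 for miR-7689-3p (-1.10 to 1.47). Without C57BL/6 naive libraries 4 and 5 the 3 differences were 0.12, -0.01 and 0.18. The intervals include 0 and reach beyond 1 in size for miR-6540-3p and miR-7689-3p, so differences of up to about that size between strains were not detectable in these libraries.

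The strain contrasts were not used in choosing the miRNAs and were tested. In naive ganglia, CAST/Ei differed from C57BL/6 by a log2 change of 0.25 ± 0.24 (SE) for miR-6540-5p, with a 95% interval of -0.27 to 0.77 (limma adjusted p = 0.519), and it was 0.12 without C57BL/6 naive libraries 4 and 5. For miR-6540-3p it was -0.17 ± 0.36, with an interval of -0.94 to 0.60 (limma adjusted p = 0.778), and without the same 2 libraries it turned to 0.24. For miR-7689-3p it was 0.88 ± 0.40, with an interval of 0.02 to 1.73 (limma adjusted p = 0.149), and without those 2 libraries it was again 0.88, with an interval of -0.08 to 1.84 (limma adjusted p = 0.198). None of the 3 passed the adjusted threshold, against 11.1% of the 638 miRNAs. The naive libraries of the strains overlapped for all 3, while 9.40% of the 638 miRNAs had every CAST/Ei library above every C57BL/6 one. Unadjusted, 1 of the 3 was under 0.05 with limma, as were 203 of the 638 miRNAs. By adjusted p, edgeR and DESeq2 on whole reads each called 0 of the 3, against 12.1% and 18.6% of all miRNAs. With the replicate number as a block, the number called over all miRNAs rose from 71 to 111, and still none of the 3 was among them. Numbers 4 and 5 occur only in C57BL/6 naive, so the block also takes those 2 libraries out of the contrast. The rise is therefore no measure of pairing alone.

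In injured ganglia, the mean of miR-7689-3p in CAST/Ei was 2.14 times that in C57BL/6, much as the ratio of 1.99 in naive ganglia. The 3 injured CAST/Ei libraries (24.7 to 40.0 CPM) were all above the 3 injured C57BL/6 libraries (11.3 to 20.4 CPM), which 15.4% of the 638 miRNAs also were. The log2 change was 1.06 ± 0.45 (SE), with an interval of 0.10 to 2.02 (limma adjusted p = 0.447). When only the 2 injured groups were fitted, its adjusted p was 0.0215 in limma, and it ranged up to 0.9997 under the other alternatives. That fit of 2 groups called 105 miRNAs, against 21 of the 638 in the main fit. The log2 change itself stayed between 0.87 and 1.27 over all 26 alternatives, so its size varied little while the call rested on that 1 setting.

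miR-6540-5p and miR-6540-3p were closer between the injured groups, with ratios of 1.17 and 1.19. Their log2 changes were 0.23 ± 0.27 (interval -0.35 to 0.81, limma adjusted p = 0.974) and 0.23 ± 0.40 (interval -0.63 to 1.08, limma adjusted p = 0.985). None of the 3 passed, against 3.29% of all miRNAs. Unadjusted, 1 of the 3 was under 0.05 with limma, as were 56 of the 638 miRNAs. With edgeR and with DESeq2 1 of the 3 was too, but no unadjusted share over all miRNAs is given for them. Nothing is read from those 2 counts. By adjusted p, edgeR and DESeq2 each called 0 of the 3, against 3.29% and 3.93% of all miRNAs. Strain differences of up to 0.81 and 1.08 on this scale remain within the intervals of the 2 miR-6540 strands.

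**Figure D4:**
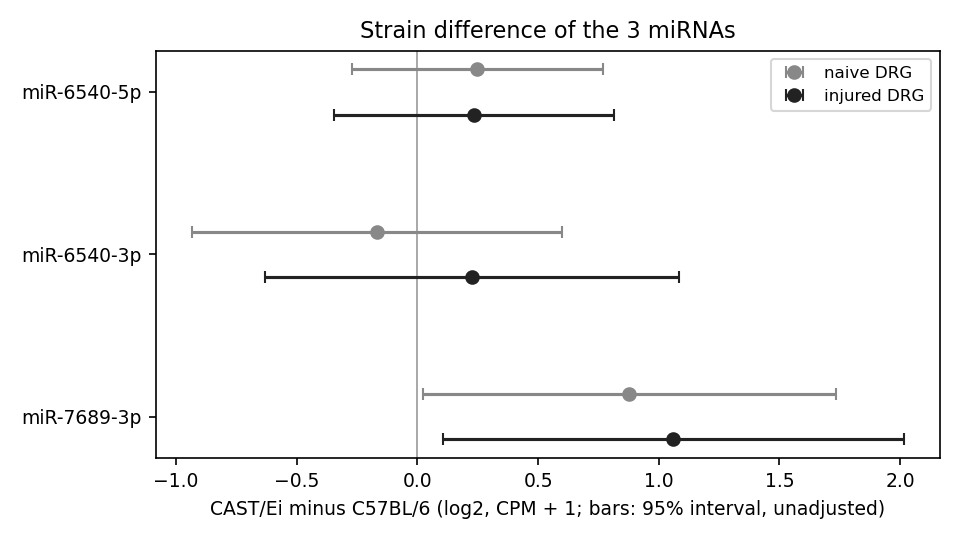
Strain difference (CAST/Ei minus C57BL/6, log2(CPM + 1) scale) of each of the 3 miRNAs in naive and in injured ganglia, with bars for the 95% interval. miR-7689-3p lies at 0.88 and 1.06, and both miR-6540 strands lie between -0.17 and 0.25, with intervals that include 0.

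Both strands of miR-6540 come from 1 hairpin, and their shares of its reads within a library do not depend on how the library was scaled. The 3p share of miR-6540 reads was 12.1%, 9.63%, 9.09%, 14.7% and 38% in C57BL/6 naive libraries 1 to 5. It was 15.4%, 15.4% and 15.6% in C57BL/6 injured, 11.7%, 10.5% and 11.9% in CAST/Ei naive, and 18.5%, 13.5% and 14.7% in CAST/Ei injured libraries. Naive library 5 of C57BL/6 stood alone, with 76 of 200 reads from the 3p strand (Wilson 95% interval 31.6% to 44.9%, counting error only). The 5p strand gave most reads in every library, from 1.63 times the 3p reads in that library to 10 times in C57BL/6 naive library 3.

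The mean log2 ratio of 5p to 3p, with 1 CPM added to each so that scaling enters slightly at these low levels, was higher in CAST/Ei than in C57BL/6 naive ganglia by 0.42. An exact two-sided permutation test over the 8 libraries gave p = 0.696 (adjusted 1 over 2 tests; smallest possible p 0.0179), and without C57BL/6 naive libraries 4 and 5 the difference was -0.12. In injured ganglia the difference was 0.01 (exact two-sided permutation p = 1, adjusted 1; smallest possible p 0.1, so this design could not pass the threshold). As a description, the log2 ratio changed with injury by 0.07 in C57BL/6 and by -0.34 in CAST/Ei. The C57BL/6 value rested on naive library 5: it was -0.35 without that library and -0.47 without libraries 4 and 5, the same sign as in CAST/Ei.

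**Figure D5:**
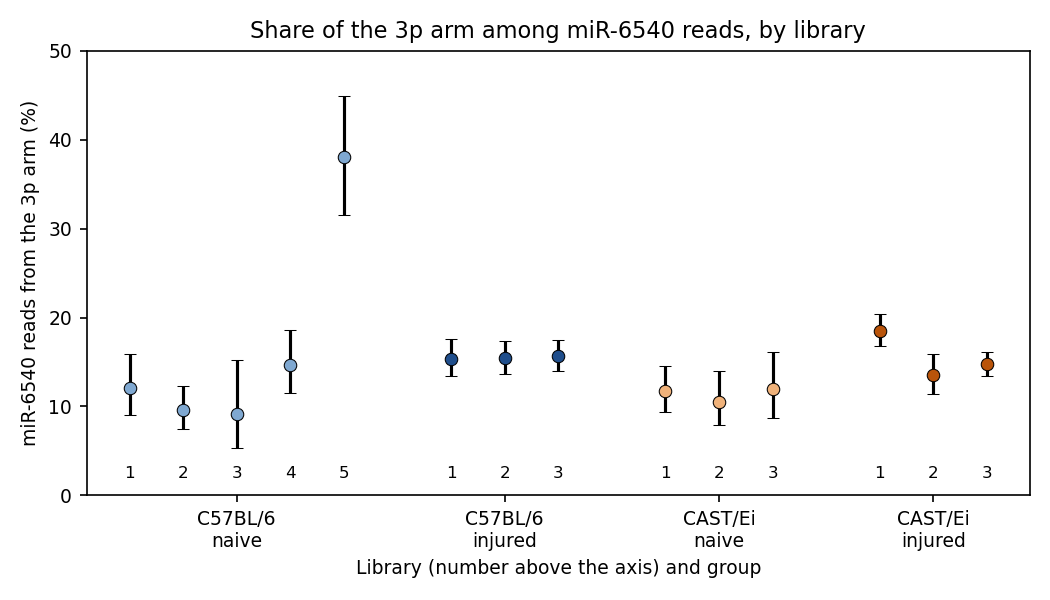
Share of miR-6540 reads from the 3p strand in each library, in percent, with the Wilson 95% interval of counting error as bars. All libraries lie between 9.09% and 18.5% except C57BL/6 naive library 5 at 38%.

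The spread between libraries is given beside the part that counting reads alone would add. The coefficient of variation of miR-6540-5p was 8.25% to 22.5% by group, against 2.75% to 6.48% from counting. For miR-6540-3p it was 65.0% in C57BL/6 naive, against 15.3% from counting, while in CAST/Ei naive the values of 14.0% and 15.2% were about alike. For miR-7689-3p it was 23.5% to 52.5%, against 5.87% to 21.4% from counting.

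Within 1 condition, the 3 miRNAs were compared across libraries on the log2(CPM + 1) scale, in 6 relations with adjusted p over the 6. Among the 6 injured libraries, miR-6540-5p and miR-6540-3p had r = 0.80 (exact permutation p = 0.0583, adjusted 0.336) and rho = 0.89 (exact permutation p = 0.0333, adjusted 0.2), and r was 0.92 without the 2 most distant libraries. Among the 8 naive libraries the same pair had r = -0.55 (exact permutation p = 0.167, adjusted 0.336) and rho = -0.17, and r was -0.01 without the 2 most distant libraries. Without naive libraries 4 and 5 of C57BL/6 the sign turned, with r = 0.91 and rho = 0.66 over the 6 naive libraries left. The naive value thus rested on those libraries, and none of the 6 relations passed after adjustment. miR-7689-3p had r of 0.63 with miR-6540-5p and 0.43 with miR-6540-3p in injured libraries (exact permutation adjusted p 0.336 and 0.497), and 0.15 and -0.39 in naive libraries (adjusted 0.688 and 0.456).

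Over all 14 libraries, as a description with no test since naive and injured groups both enter, the miRNA most like miR-6540-5p was miR-431-5p (Pearson r = 0.92). It was followed by miR-154-3p (0.92), miR-493-3p (0.86), miR-21a-5p (0.86) and miR-7689-3p (0.85), while its own partner strand miR-6540-3p came 8th with 0.84. For miR-6540-3p the order was miR-142-5p (0.91), miR-431-5p (0.86), miR-344d-3p (0.86), miR-1197-3p (0.85) and miR-21a-5p (0.84). For miR-7689-3p it was miR-344h-3p (0.89), miR-221-3p (0.87), miR-6540-5p (0.85), miR-154-3p (0.85) and miR-431-5p (0.85). The order depended on C57BL/6 naive libraries 4 and 5. Over the other 12 libraries the 2 strands of miR-6540 were each other's nearest miRNA (r = 0.99), and miR-7689-3p came 12th for the 5p strand (0.83) and 15th for the 3p strand (0.80). miR-344h-3p (0.92) and miR-221-3p (0.88) were still nearest to miR-7689-3p. miR-431-5p, among the 5 nearest of all 3 over 14 libraries, ranked 3, 4 and 9 over these 12, with means of 88.5 ± 15.1 (SD, n = 5) and 285 ± 25.3 CPM (n = 3) in naive and injured C57BL/6, and 94.4 ± 36.9 and 340 ± 4.84 CPM (n = 3 each) in CAST/Ei.

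Other intronic miRNAs give the frame for the position of these hairpins, again as a description. Of the 1123 miRNAs 857 could be placed by the annotation, 490 of the 638 kept. Among the 149 other kept miRNAs in an intron on the host's strand, the median injury change was 0.03 in C57BL/6 and -0.17 in CAST/Ei, and the highest was 1.47 (miR-511-3p, in the macrophage receptor gene Mrc1) and 1.19 (miR-2137, in Zfp185). Among the 20 others on the strand opposite to a host, the medians were -0.08 and -0.19 and the highest values 1.20 (miR-34b-5p) and 0.54 (miR-34b-3p). miR-6540-3p therefore ranked 1 of 150 and miR-7689-3p 1 of 21 in both strains, on the contrast that chose them.

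Of 41 listed miRNAs in introns of host genes that are neuronal or expressed in neural tissue, 36 were kept by the filter. The list is wide and includes hosts not particular to neural tissue, such as the Pank and Ctdsp genes. After injury in C57BL/6 none was called higher and 2 fell, while 2.35% of the 638 miRNAs rose and 0.784% fell. The 2 were miR-1224-5p, by 1.41 ± 0.36 (SE, limma adjusted p = 0.0449), and miR-551b-5p, by 1.15 ± 0.30 (limma adjusted p = 0.0449). The list median was -0.23. Both calls were lost in 16 of the alternatives tried, with adjusted p up to 0.205 and 0.206 when C57BL/6 injured library 1 was left out. miR-551b-5p averaged 6.22 ± 1.42 CPM (SD, n = 5) in C57BL/6 naive and 2.23 ± 0.561 (n = 3) in C57BL/6 injured libraries. It thus met the filter of 5 CPM through naive libraries, where it was high. Its C57BL/6 change ran from -1.59 to -0.63 over 25 alternatives. In CAST/Ei none of the 36 was called by limma, edgeR or DESeq2, with a median of -0.30. Over all miRNAs these tools called 1.10%, 1.25% and 2.04% higher there, so none among 36 lies near those shares. Unadjusted, 3 of the 36 were under 0.05 with limma, against 41 of the 638. The most abundant members, which did not pass, had log2 changes of -1.46 and -0.73 (miR-218-5p), 1.31 and -0.32 (miR-338-3p, found in myelinating glia) and -0.28 and -0.42 (miR-26a-5p) in C57BL/6 and CAST/Ei. Without C57BL/6 naive libraries 4 and 5 the C57BL/6 changes of these 3 were 0.50, 0.56 and 0.02, so those of miR-218-5p and miR-26a-5p turned sign. In that fit 3 of the 36 fell in C57BL/6 and 1 in CAST/Ei, miR-551b-3p being the one added in each, and the C57BL/6 median was -0.01. The share of all miRNAs that fell in that fit is not given here, so nothing is read from these counts. In C57BL/6 with all libraries edgeR called 2 of the 36 lower, against 2.98% of all miRNAs, and DESeq2 called 7 lower, against 9.12%.

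Of 19 listed miRNAs known from axon injury and regeneration, 18 were kept. In C57BL/6 2 rose, miR-21a-5p by 1.76 and miR-431-5p by 1.69, with a list median of 0.00 (0.28 without naive libraries 4 and 5, with the same 2 called). Over all miRNAs 2.35% rose by this test with all libraries, and no share is given for the fit without naive libraries 4 and 5. edgeR called 2 of the 18 higher and 1 lower (2.04% and 2.98% of all), and DESeq2 called 3 higher and 2 lower (3.30% and 9.12%). In CAST/Ei 3 rose, miR-21a-3p by 2.89, miR-431-5p by 1.93 and miR-21a-5p by 1.57, with a list median of 0.21, against 1.10% of all miRNAs. edgeR and DESeq2 each called 3 of the 18 higher there, against 1.25% and 2.04% of all. Mean levels of miR-21a-3p in naive and injured libraries were 0.623 and 10.8 CPM in CAST/Ei, and 2.17 and 7.43 CPM in C57BL/6. It thus met the filter of 5 CPM through injured libraries, where it was high. Its CAST/Ei naive mean lay within the 0.202 to 0.760 CPM that 3 reads were worth by library. Its CAST/Ei change ran from 1.47 to 4.10 over 25 alternatives, so its size is uncertain, while the call held in all 25. The CAST/Ei call of miR-21a-5p was lost when any 1 of the 6 CAST/Ei libraries was left out (adjusted p up to 0.129, without injured library 1). The most abundant members, which did not pass, had changes of -0.58 and -0.39 (miR-138-5p), -0.28 and -0.42 (miR-26a-5p) and 0.18 and 0.24 (miR-124-3p) in C57BL/6 and CAST/Ei. Without C57BL/6 naive libraries 4 and 5 the C57BL/6 values were -0.44, 0.02 and -0.02. The list was assembled with results of these data known and includes miRNAs that were seen to change.

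Markers of the cell types a ganglion can hold are given beside the members' injury changes, as ranges of summed CPM by group. The 7 neuronal markers summed to 133376 to 166741 CPM in C57BL/6 naive and 108277 to 112744 in C57BL/6 injured libraries, and to 131192 to 146863 and 103355 to 112086 in CAST/Ei. The 6 leukocyte markers summed to 4008 to 6805 and 5656 to 7536 CPM in C57BL/6, and to 2796 to 5038 and 4825 to 5816 in CAST/Ei. The 4 glial markers summed to 8044 to 35829 and 36608 to 45396 CPM in C57BL/6, and to 37058 to 42868 and 30720 to 32124 in CAST/Ei. Skeletal muscle markers (3) had 5220 to 15645 and 8747 to 9488 CPM in C57BL/6, and 8558 to 11223 and 6254 to 7253 in CAST/Ei. In the same order, erythrocyte markers (3) had 6762 to 25813, 10580 to 13863, 9088 to 12815 and 7212 to 8867. Endothelial markers (2) had 11212 to 16081, 18408 to 20895, 18746 to 27549 and 17967 to 21824. Fibroblast markers (3) had 2226 to 4776, 2507 to 2849, 2175 to 2759 and 2219 to 2357. Epithelial markers (6) had 220 to 1509, 213 to 284, 243 to 347 and 257 to 322. None of these was at 0 in any library. The summed neuronal markers were thus lower in every injured library than in every naive library of the same strain, while the 3 miRNAs were higher. Other sums also moved without overlap. Endothelial markers were higher in every injured library in C57BL/6, and muscle and erythrocyte markers were lower in every injured library in CAST/Ei. Glial markers were higher in every injured library in C57BL/6 and lower in every one in CAST/Ei. The neuronal sum follows its most abundant markers and need not hold for each. The mean of miR-138-5p went from 94686 to 62550 CPM in C57BL/6 and from 88923 to 67700 CPM in CAST/Ei. By contrast, miR-124-3p had log2 changes of 0.18 and 0.24 (-0.02 in C57BL/6 without naive libraries 4 and 5). The part of any cell type in the change of the 3 miRNAs was not tested.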

How the data were processed

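Mature miRNAs were measured in 14 small RNA libraries of mouse DRG, prepared with the mirVana and Ion Total RNA-Seq kits per the labels' protocols. Bowtie2 was used, per the submitters' processing notes; no version, build or counting method is given in the sources used here. The deposited signal is CPM on library sizes scaled by TMM: in every library 100% of values are whole multiples of 1 read within 1e-06 reads, and the totals (867581 to 1311857) equal the reciprocal TMM factors within 1.04e-05. The plan had assumed plain CPM, and limma was kept.

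The values log2(CPM + 1) of 638 miRNAs (5 CPM or more in 3 or more libraries) were fitted with limma-trend (limma 3.58.1, R 4.3.3), with 1 mean for each of 4 groups. Two-sided p-values were adjusted over the 638 by the Benjamini-Hochberg method, threshold 0.05. edgeR 4.0.16 and DESeq2 1.42.0 were run on the recovered reads as alternatives; recovery was least certain for C57BL/6 injured library 1, so edgeR was also run without it, an alternative chosen after seeing the data, as was leaving out C57BL/6 naive libraries 4 and 5 in the strand balance's injury change, correlations and lists. The script was tested on simulated data. Wilson intervals and read floors cover counting error only, as no molecular identifiers are named; limma's 95% intervals come from the spread between libraries.

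Members and lists were chosen with earlier results of these data known. Named miRNAs were every listed strand, the 5 most correlated with each, and, of each list, the 3 most abundant and those called. Sequences and coordinates come from RefSeq (GRCm38.p6) and GENCODE M21. For the naive strain comparison the deviations of same-numbered libraries correlated at 0.10 to 0.11, over the limit of 0.1 for treating the numbers as pairs, so the blocked count is given beside it.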

Additional observations from a re-analysis of the deposited data

Results flagged for a closer look

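In C57BL/6 naive ganglia, 38% of the miR-6540 reads of library 5 came from the 3p strand, against 9.09% to 14.7% in the other 4 libraries. The gap to the nearest library was 0.806 of the group's whole range, above the critical value of 0.71 for 5 values. Chance marks about 1 in 20 such groups. Only C57BL/6 naive had enough libraries, and it was tested on 5 related quantities: the levels of the 3 miRNAs, the ratio of 5p to 3p and the 3p share. The ratio, which comes from the same reads as the share, was not flagged, so the flag depends on the scale.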

How the results depend on the processing

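In 402 of 406 alternatives over 17 member results, strain tests stayed on their side of the threshold, and injury changes and their strain difference moved by less than the spread between libraries. Many could not differ. An injury change stays the same when a library of the other strain is left out, the filter is changed or 2 groups are fitted alone. The strand balance test in injured ganglia could not pass at all. The share of 402 is thus no measure of robustness. Counted by adjusted p instead, the injury changes of the 3 miRNAs stayed under 0.05 in 139 of 156 alternatives, and the 17 that did not were all of miR-6540-3p or miR-7689-3p. These contrasts chose the members, so that count is no support. The 4 of the 406 that fell outside follow. With a pseudocount of 5 CPM the injury change of miR-7689-3p in C57BL/6 was 1.27 (1.96 with 1 CPM), and that of miR-6540-3p in CAST/Ei was 1.56 (2.07). With values rescaled to equal library totals the CAST/Ei change of miR-6540-5p was 1.99 (1.73). With only the 2 injured groups fitted the strain difference of miR-7689-3p was 1.06 with an adjusted p of 0.0215. Across single libraries left out, the injury change ranged from 1.61 to 1.85 (miR-6540-5p), 1.47 to 1.95 (miR-6540-3p) and 1.67 to 2.15 (miR-7689-3p) in C57BL/6, and from 1.67 to 1.79, 1.90 to 2.24 and 1.93 to 2.46 in CAST/Ei. The cause of these shifts was not tested.

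Numbers of miRNAs called moved more than those values. In C57BL/6 injury (20) they were 32 with edgeR, 79 with DESeq2, 3 with only 2 groups, 6 with edgeR without injured library 1, and 6 to 70 with 1 library left out (70 without C57BL/6 naive library 3; 7, 7 and 6 without injured 1, 2 and 3). In CAST/Ei injury (7) they were 15 with DESeq2, 17 without C57BL/6 naive libraries 4 and 5, and 3 to 11 with 1 library left out (11 without C57BL/6 naive 5; 3 and 4 without CAST/Ei naive 1 and 2; 3, 4 and 3 without CAST/Ei injured 1, 2 and 3). For the naive strain difference (71) they were 118 with DESeq2, 21 with only 2 groups, and 30 to 147 with 1 left out (147 without C57BL/6 naive 3; 34, 44 and 30 without CAST/Ei naive 1, 2 and 3). For the injured one (21) they were 105 with only 2 groups, 32 without naive libraries 4 and 5, and 15 to 24 with 1 left out. The interaction had 0 with limma (52 at unadjusted p under 0.05), 1 with edgeR and 9 with DESeq2.

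The replicate number as a block gave 37, 21, 111 and 36 calls in these 4 contrasts. It changed no call of the 3 miRNAs; the injury change of miR-6540-3p in C57BL/6 was 2.08. In the other contrasts not every same-numbered pair correlated over 0.1. Libraries that correlated best with their own number were 1 of 3 naive and 2 of 3 injured in C57BL/6, 2 of 3 naive and 1 of 3 injured in CAST/Ei, and 1 of 3 of each strain among injured libraries.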
